A study of Homo sapiens with 6 samples.

Results

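Keratins are the intermediate filament proteins of epithelial cells. An acidic type I chain and a basic type II chain pair to build each filament, and the filaments are anchored at desmosomes and hemidesmosomes. KRT8 pairs with KRT18 in simple epithelia, where KRT7 and KRT19 are usually made as well, whereas other keratins belong to stratified epithelia, to the sheath of the hair follicle or to hair itself. Lung adenocarcinomas are known as KRT7-positive tumours.

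The keratin genes described here are those whose single annotated symbol is KRT and a number, with or without a final A, B or C. They came to 48 of the 18417 genes measured, 27 of type I, 20 of type II and KRT222, which was placed in neither. RefSeq lists 55 such symbols. The probe annotation used did not list the other 7 (KRT6A, KRT6B, KRT6C, KRT17, KRT81, KRT82 and KRT86), so they were not analysed here. Levels came from H441 cells, a human lung adenocarcinoma line. In one group the cells had received a scrambled control siRNA pool, and in the other an siRNA pool directed at ETS2, a transcription factor of the ETS family, both with a lipid reagent. RNA was taken 48 h later from 3 separate transfections per group, 1 array each, so that both groups share the line, the reagent and the time, and 1 ETS2 pool is set against 1 control pool. The comparison asks which transcripts differ once ETS2 is lowered.

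Levels are log2 values after RMA, and every difference subtracts the control mean from the ETS2 siRNA mean. ETS2 itself read 9.79, 9.91 and 9.79 on the control arrays and 8.87, 8.70 and 8.78 after its siRNA, a fall to 48.4% of the control level (limma adjusted p = 0.000254). A gene was called at a limma adjusted p under 0.05 over all genes, which 904 genes reached (4.91%), 2.28% of all genes being higher and 2.63% lower. A gene was taken as above background when at least 1 group mean passed 6.67, the 95th percentile of 341 olfactory receptor genes.

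None of the 48 keratin genes passed the test. The count was 0 higher and 0 lower, against 2.28% and 2.63% of all genes, or 4.91% in both directions. Calls were rarer among dim genes: 25 keratins were above background, where 6.79% of genes were called, and 23 below it, where 0.354% were. At an unadjusted p under 0.05 there were 5 of 48 keratins (10.4%), KRT15, KRT19 and KRT80 higher and KRT4 and KRT75 lower, against 18.5% of all genes. Above background the share was 16.0% of keratins against 23.4% of genes, and below it 4.35% against 6.70%. The median keratin difference was -0.02 and the median over all genes 0.00, with 19 keratins above 0, 27 below and 2 at 0. The median size of a keratin difference, regardless of sign, was 0.045, against 0.0533 over all genes.

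The differences ran from -0.24 for KRT75 to 0.16 for KRT33B. Across the 48 genes the 95% intervals reached no lower than -0.38 and no higher than 0.43, so that a change over 1.34-fold lay outside the interval of each gene. These intervals are not adjusted for the number of genes, and RMA compresses the folds of dim genes. They rest on the spread between transfections of 1 line, with limma drawing each gene's variance towards that of all genes.

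**Figure D1:**
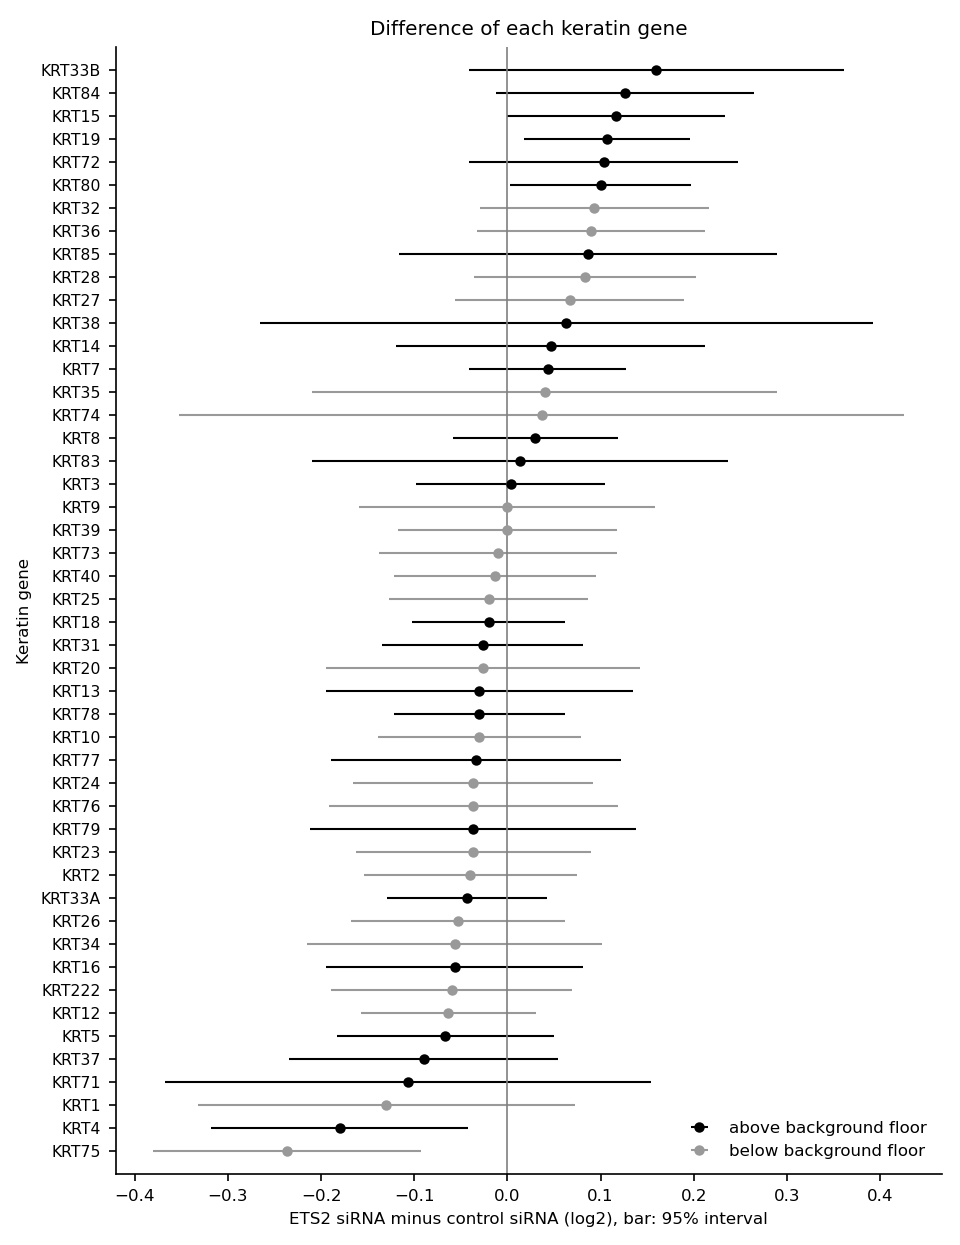
Log2 difference of each keratin gene, ETS2 siRNA mean minus control mean (horizontal axis), for 48 genes (vertical axis); points are limma estimates from 3 arrays per group and bars are 95% intervals. The estimates run from -0.24 (KRT75) to 0.16 (KRT33B), and the bars of 5 genes leave out 0.

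Each probe has its own response, so that levels of different genes are given here for their own sake and not as amounts to compare. KRT7, KRT8, KRT18 and KRT19, keratins of simple epithelia, had group means between 13.05 and 13.39. KRT20, the intestinal and urothelial keratin, and KRT23 lay below background, at 6.27 and 5.57 in control cells. Both KRT7 and KRT19, the markers by which the epithelial label of the line was checked, were far above background on all 6 arrays.

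KRT7 read 13.02, 13.05 and 13.07 on the control arrays and 13.08, 13.09 and 13.10 after ETS2 siRNA. The groups did not overlap, yet the gap between them was 0.01. The difference was 0.04 (95% interval -0.04 to 0.13, limma adjusted p = 0.618). KRT19, a short type I keratin without a tail domain, read 13.12, 13.12 and 13.11 in control cells and 13.19, 13.27 and 13.21 after ETS2 siRNA. All arrays given ETS2 siRNA were above all control arrays. The difference was 0.11 (SE 0.0389, 95% interval 0.02 to 0.20), or 108% of the control level, with a limma adjusted p of 0.182. An intensity trend in limma's variance model brought KRT19 past the threshold (adjusted p = 0.00674), and over the 16 alternative settings the adjusted p ran from 0.00674 to 0.461.

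KRT8 and KRT18, the primary filament pair of simple epithelia, showed differences of opposite sign, both small. KRT8 read 13.34, 13.39 and 13.32 in control cells and 13.37, 13.40 and 13.37 after ETS2 siRNA, a difference of 0.03 (95% interval -0.06 to 0.12). KRT18 read 13.40, 13.40 and 13.38 in control cells and 13.36, 13.37 and 13.39 after ETS2 siRNA, a difference of -0.02 (95% interval -0.10 to 0.06). The groups overlapped for both genes. In the RefSeq gene order KRT18 is the next keratin after KRT8, at the end of the type II cluster and away from the other type I keratins. A second KRT18 probe stood at 13.35 in control cells and differed by -0.02. KRT18 has many processed pseudogenes, and whether the array separates their signal from that of the gene was not tested.

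**Figure D2:**
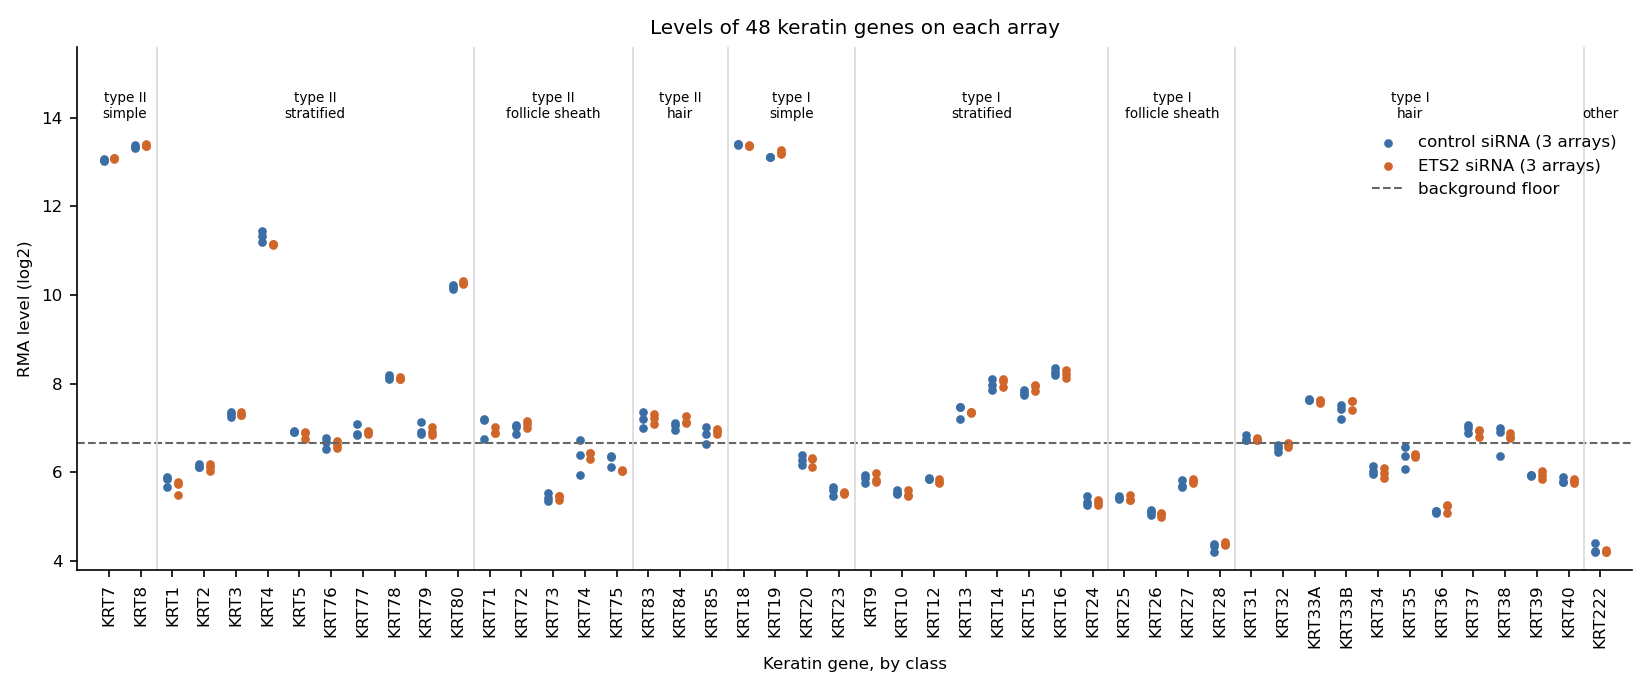
RMA level (log2, vertical axis) of the 48 keratin genes, ordered by class along the horizontal axis, with 3 control arrays in blue and 3 ETS2 siRNA arrays in orange; the dashed line is the background floor of 6.67. KRT7, KRT8, KRT18 and KRT19 lie above 13, KRT4 and KRT80 above 10, and 23 genes lie below the floor in both groups.

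Among the 10 type II keratins of stratified epithelia, 7 were above background, and KRT4 and KRT80 were the ones at levels over 10. KRT4, the type II keratin of mucosal stratified epithelia such as the oesophagus, read 11.33, 11.20 and 11.44 on the control arrays and 11.15, 11.13 and 11.15 after ETS2 siRNA. All arrays given ETS2 siRNA were below all control arrays, and the control arrays were spread over 0.24 against 0.02. The difference was -0.18 (SE 0.0601, 95% interval -0.32 to -0.04), or 88.3% of the control level, with a limma adjusted p of 0.147. Without control replicate 2, the lowest control array, the difference was -0.24 and passed the threshold (adjusted p = 0.0399). It also passed with an intensity trend (adjusted p = 0.0171) and with array weights (adjusted p = 0.0315), and over 16 alternatives the adjusted p reached 0.326.

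KRT13, the type I partner of KRT4 in mucosal epithelium, stood near background, its control level 7.39 ± 0.15 and its level with ETS2 siRNA 7.36 ± 0.02 (SD, n = 3), a difference of -0.03. The keratin genes next to KRT4 in the RefSeq order, KRT3 and KRT79, differed by 0.00 and -0.04.

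The promoters of KRT4 and KRT75 are shown because these genes had the smallest unadjusted p-values among the keratins (0.0169 and 0.00516) and ETS factors bind sequences with a GGAA core. Each is the 250 bases before the gene's start in RefSeq (GRCh38.p14), written 5′ to 3′ on the minus strand, at chr12:52814117-52814366 for KRT4 and chr12:52434372-52434621 for KRT75. Capitals mark GGAA, or TTCC where the core lies on the opposite strand.
KRT4: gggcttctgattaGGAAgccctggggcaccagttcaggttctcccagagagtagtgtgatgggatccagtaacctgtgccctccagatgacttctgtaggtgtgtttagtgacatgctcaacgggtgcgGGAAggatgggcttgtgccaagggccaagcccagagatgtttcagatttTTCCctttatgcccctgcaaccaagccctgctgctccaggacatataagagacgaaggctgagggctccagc
KRT75: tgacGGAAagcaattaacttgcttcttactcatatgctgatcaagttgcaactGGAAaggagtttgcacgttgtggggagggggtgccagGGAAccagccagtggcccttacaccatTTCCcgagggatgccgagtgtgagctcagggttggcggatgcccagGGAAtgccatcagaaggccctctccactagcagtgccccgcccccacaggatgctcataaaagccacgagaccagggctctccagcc
The KRT4 window held 3 cores and the KRT75 window 5. Cores per window were not counted over other promoters, so whether these counts are high was not tested. GGAA on either strand is common: the same window held it in 29 of 33 keratin promoters found in the table (87.9%) and in 92.8% of 27305 promoters of all genes, counting the first promoter listed per gene. The longer CCGGAA, which contains GGAA, was in neither of these windows on either strand, and was in 3 of 33 keratin promoters (KRT8, KRT36 and KRT74) and 14.8% of all promoters. A match is a stretch of letters and not a shown binding site.

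KRT80, an epithelial keratin that filament studies place near desmosomes, read 10.13, 10.22 and 10.19 on the control arrays and 10.27, 10.32 and 10.25 after ETS2 siRNA. The groups did not overlap, with the ETS2 siRNA arrays higher. The difference was 0.10 (SE 0.0422, 95% interval 0.00 to 0.20), with a limma adjusted p of 0.253, and it was called under 0 of 16 alternatives. In all, 5 keratins had groups that did not overlap (10.4%), KRT7, KRT19 and KRT80 higher and KRT4 and KRT75 lower, against 23.1% of all genes. Above background the share was 16.0% of keratins against 29.2% of genes, and below it 4.35% against 8.19%.

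Apart from KRT78, the remaining type II keratins of stratified epithelia were at or near background. KRT78 stood at 8.15 ± 0.04 in control cells (SD, n = 3), KRT3 at 7.31 ± 0.06 and KRT5, the basal cell keratin, at 6.92 ± 0.02. KRT77 and KRT79 stood at 6.93 ± 0.14 and 6.97 ± 0.14. Their differences lay between -0.07 (KRT5) and 0.00 (KRT3). KRT1, KRT2 and KRT76, keratins of cornified skin and palate, were below background, with differences of -0.13, -0.04 and -0.04.

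Of the 8 type I keratins of stratified epithelia, 4 were above background, KRT13, KRT14, KRT15 and KRT16. KRT15, a keratin of basal cells, read 7.86, 7.74 and 7.80 in control cells and 7.84, 7.94 and 7.97 after ETS2 siRNA. The groups overlapped through replicate 1 of each. The difference was 0.12 (SE 0.0507, unadjusted p = 0.0499, limma adjusted p = 0.270). KRT15 and KRT19 are neighbours in the RefSeq order, and the keratin on the other side of KRT19, KRT9, was below background and differed by 0.00.

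KRT14, the basal partner of KRT5, had a control level of 7.98 ± 0.13 and a level of 8.02 ± 0.09 with ETS2 siRNA (SD, n = 3). KRT16, a keratin of wounded and hyperproliferative skin, had levels of 8.27 ± 0.085 and 8.22 ± 0.085. Their differences of 0.05 and -0.06 were smaller than the spread between replicates. KRT14, KRT16 and KRT17 are close in sequence, as are KRT33A and KRT33B, so that their separate values are uncertain. KRT9, KRT10, KRT12 and KRT24 were below background, between 5.32 and 5.87, with differences from -0.06 (KRT12) to 0.00 (KRT9). Of the classical skin pair, KRT1 differed by -0.13 and KRT10 by -0.03; of the corneal pair, KRT3 differed by 0.00 and KRT12 by -0.06.

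The keratins of hair and of the follicle sheath, 23 genes whose known sites are skin appendages, were below background or up to 7.64. All 3 measured type II hair keratins, KRT83, KRT84 and KRT85, were above background, between 6.84 and 7.20. So were 5 of the 11 type I hair keratins, KRT31, KRT33A, KRT33B, KRT37 and KRT38. Of the follicle sheath keratins, KRT71 and KRT72 were above background, at 7.04 and 6.99 in control cells, and the other 7 were below. A level just over 6.67 need not mean expression, since the floor itself is passed by 5% of olfactory receptor genes.

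KRT33B had the highest difference of all keratins. Its arrays read 7.42, 7.20 and 7.51 in control cells and 7.61, 7.40 and 7.60 after ETS2 siRNA. The groups overlapped, and the difference of 0.16 had a 95% interval from -0.04 to 0.36 (limma adjusted p = 0.399). KRT84 read 7.11, 6.96 and 7.07 in control cells and 7.28, 7.13 and 7.11 after ETS2 siRNA, also overlapping at 7.11, with a difference of 0.13 (limma adjusted p = 0.318). KRT33A, KRT31 and KRT37 differed by -0.04, -0.03 and -0.09. KRT38, KRT83 and KRT85 differed by 0.06, 0.01 and 0.09, and KRT71 and KRT72 by -0.11 and 0.10.

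KRT75, a type II keratin of the follicle's companion layer, had the lowest difference and the smallest p-value among the keratins. It read 6.13, 6.34 and 6.36 on the control arrays and 6.03, 6.05 and 6.04 after ETS2 siRNA, with every value below the background floor. The ETS2 siRNA arrays were all lower, by 0.08 at the closest. The difference was -0.24 (SE 0.0625, 95% interval -0.38 to -0.09, limma adjusted p = 0.0781). It passed the threshold without control replicate 1, the control array nearest to the ETS2 siRNA arrays (-0.31, adjusted p = 0.0191), and with array weights (-0.25, adjusted p = 0.0345). Over the 14 alternatives that kept the gene, the adjusted p reached 0.212.

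**Figure D3:**
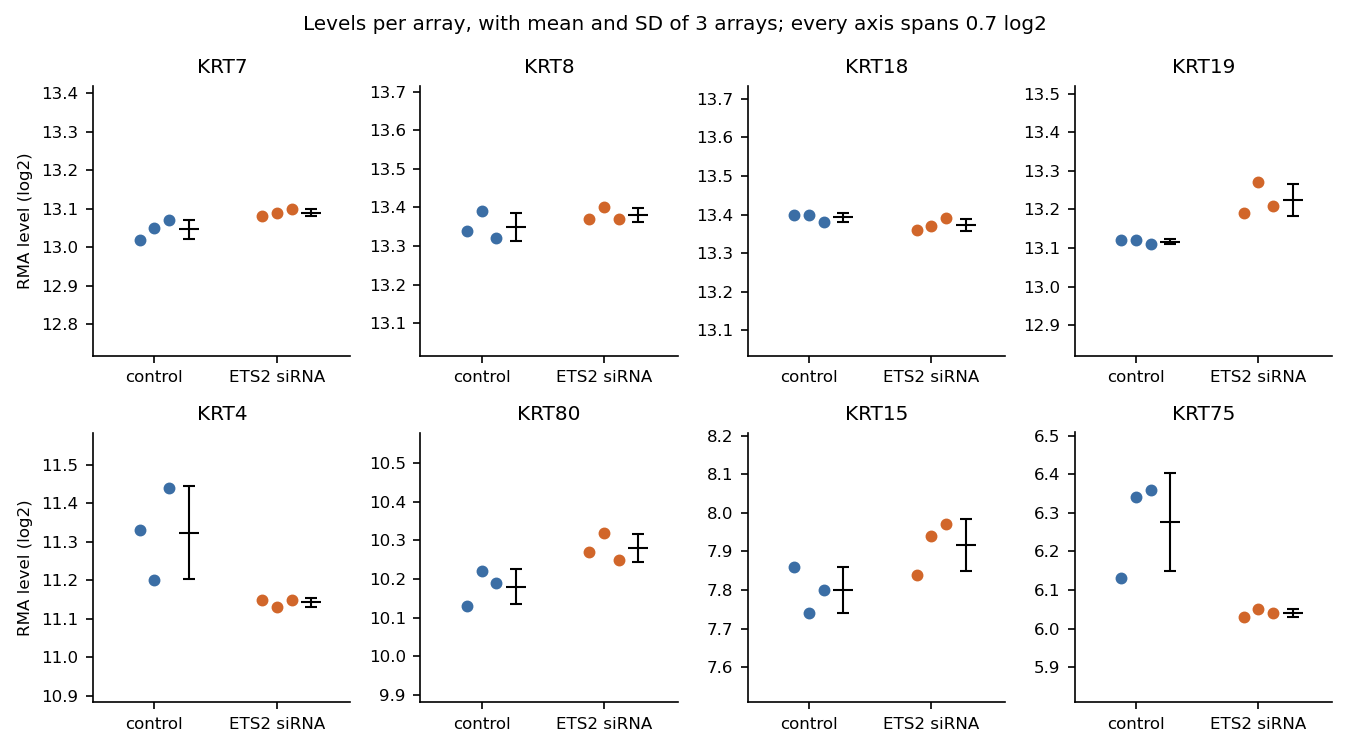
RMA level (log2, vertical axis) of 8 keratin genes on each of 3 control arrays (blue) and 3 ETS2 siRNA arrays (orange), with the mean and SD of each group in black; each axis spans the same range. KRT19, KRT80 and, narrowly, KRT7 are higher and KRT4 and KRT75 lower on all 3 ETS2 siRNA arrays, while KRT8, KRT18 and KRT15 overlap.

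The spread of the keratins was larger among control arrays than among ETS2 siRNA arrays, with a median SD of 0.0898 against 0.0568. Over all genes the median SDs were 0.0603 and 0.0503. Control replicate 2 was the single lowest of the 6 arrays for 18 of 48 keratins and the highest for 0, where over all genes it was lowest for 20.5% and highest for 21.9%. Control replicate 3 was highest for 18 keratins, against 13.1% of all genes. ETS2 siRNA replicate 2 was lowest for 15, against 13.1% of all genes.

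The median deviation of the keratins from their own 6-array mean was -0.055 on control replicate 2 and 0.055 on control replicate 3. Of the genes below background as a whole, 27.8% were lowest on control replicate 2, with a median deviation of -0.03. Among the keratins this array was lowest for 11 of the 25 above background (44.0%) and 7 of the 23 below it (30.4%). KRT74 and KRT38 had the widest control ranges: KRT74 read 6.74, 5.94 and 6.39, and KRT38 7.0, 6.37 and 6.90. Without control replicate 2 the median keratin difference was -0.05, against -0.02 with all arrays, and KRT4 was the 1 keratin called. The part of this array in the keratin values was not tested beyond that.

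**Figure D4:**
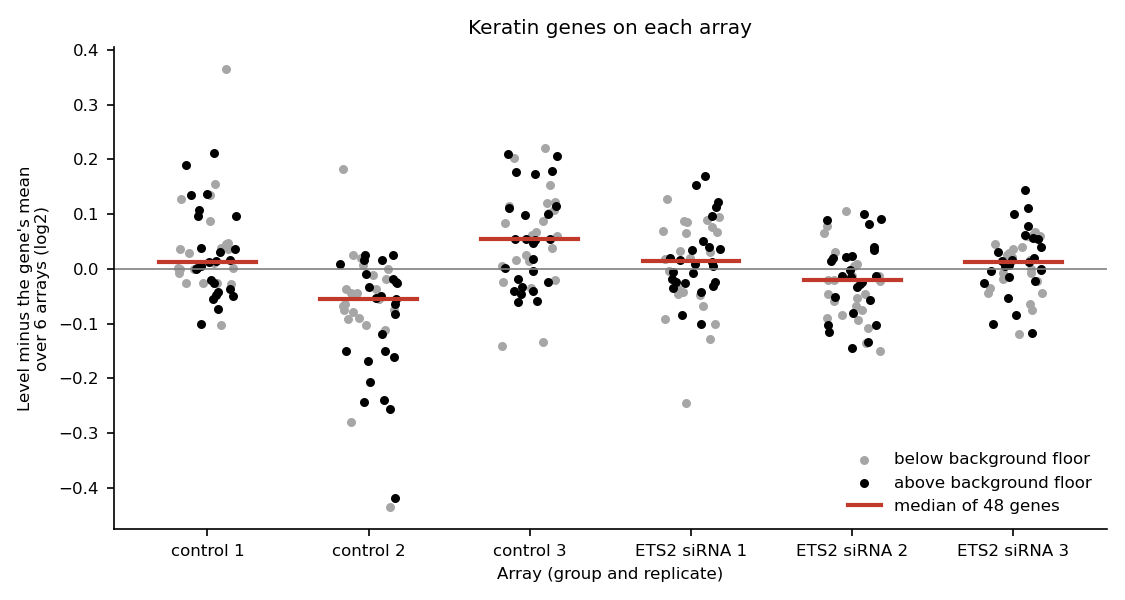
Level of each keratin gene minus its own mean over 6 arrays (log2, vertical axis) on each array (horizontal axis), with genes above background in black, genes below it in grey and the median of 48 genes as a red line. The median lies at -0.055 on control replicate 2 and 0.055 on control replicate 3, further from 0 than on the other arrays.

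Genes that act with keratin filaments did contain called members. Over 7 lists of such genes and of epithelial factors, 107 genes were measured and 11 were called (10.3%), 7 higher and 4 lower, against 4.91% of all genes and 6.79% of those above background. At an unadjusted p under 0.05 there were 35 (32.7%), against 18.5% of all genes and 23.4% of those above background. No test set these genes against the keratins. The lists were chosen with earlier results of these data known, so their counts are descriptions.

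The desmosome genes, whose products fasten keratin filaments at cell contacts, had 0 of 14 called by limma, against 4.91% of all genes, and a median difference of -0.01. At an unadjusted p under 0.05 there were 3 (21.4%), near the 18.5% of all genes. DSG2, the desmosomal cadherin of simple epithelia, read 11.76, 11.88 and 11.82 in control cells and 11.62, 11.68 and 11.65 after ETS2 siRNA. The groups did not overlap, and the difference of -0.17 had a limma adjusted p of 0.0746. PKP3, a plakophilin of the desmosomal plaque, differed by 0.11 (limma adjusted p = 0.192). Desmoplakin (DSP), which binds the filaments directly, differed by -0.01, and plakoglobin (JUP) by 0.05. The stratified-type cadherins DSG1, DSG3, DSG4, DSC1 and DSC3 were below background.

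The plakins and hemidesmosome genes all had positive differences, 9 of 9, with a median of 0.13, where 9364 of the 18417 genes had one. Of the 9, 1 was called (11.1%), against 4.91% of all genes. All 9 were above background, where 6.79% of genes were called. ITGA6, the α chain of the hemidesmosomal laminin receptor, read 8.51, 8.63 and 8.39 in control cells and 8.84, 8.84 and 8.98 after ETS2 siRNA. It rose by 0.38 (SE 0.0682, limma adjusted p = 0.0204). The call was lost without any single array other than control replicate 2 (adjusted p up to 0.0909) and with the replicate block (adjusted p = 0.063). ITGB4, its β chain, which holds the filaments through plectin, differed by 0.16 (limma adjusted p = 0.0882), and plectin itself (PLEC) by 0.14 (0.130). MACF1, EPPK1 and DST differed by 0.13, 0.13 and 0.11. For 7 of the 9 the groups did not overlap, all higher, against 11.6% of all genes in that direction and 1918 of the 13043 above background.

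Of the regulators of keratin filaments, 2 of 10 were called (20.0%), both higher, against 4.91% of all genes and 2.28% higher. All 10 were above background, where 6.79% of genes were called. The 2 called genes encode 14-3-3 proteins, which bind phosphorylated keratins. SFN, the epithelial 14-3-3 sigma, read 11.80, 11.83 and 11.79 in control cells and 12.09, 12.07 and 12.10 after ETS2 siRNA. It rose by 0.28 (SE 0.0365, limma adjusted p = 0.00678). YWHAH, the eta isoform, read 10.95, 10.90 and 10.91 in control cells and 11.18, 11.20 and 11.25 after ETS2 siRNA. It rose by 0.29 (SE 0.0393, limma adjusted p = 0.00740), and both calls held with each single array left out. FAM83H, which recruits casein kinase 1 to keratin filaments, and the keratin-binding trichoplein gene TCHP differed by 0.10 and 0.14, with limma adjusted p of 0.198 and 0.105. The casein kinase 1 gene CSNK1A1 went the other way, by -0.14 (limma adjusted p = 0.160), with all ETS2 siRNA arrays below all control arrays. Of the 10 regulators, 6 had positive and 4 had negative differences.

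Among the 15 other intermediate filament genes, 2 were called (13.3%), both higher, against 4.91% of all genes and 2.28% higher, and the median difference was 0.04. VIM, the mesenchymal filament gene, read 8.17, 8.32 and 8.20 in control cells and 8.63, 8.61 and 8.55 after ETS2 siRNA, and rose by 0.37, with a call that held whichever array was left out. LMNB1, a lamin of the nuclear envelope, read 9.67, 9.67 and 9.60 in control cells and 9.87, 9.91 and 9.87 after ETS2 siRNA. It rose by 0.24 (SE 0.0397, limma adjusted p = 0.0158), and the call was lost without control replicate 3 or any 1 ETS2 siRNA array (adjusted p up to 0.0774). LMNB2 and LMNA differed by 0.11 and 0.05. NEFM, which was below background, differed by -0.14 (limma adjusted p = 0.136), and its groups did not overlap. Of the 15 genes, 11 had positive and 4 had negative differences.

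**Figure D5:**
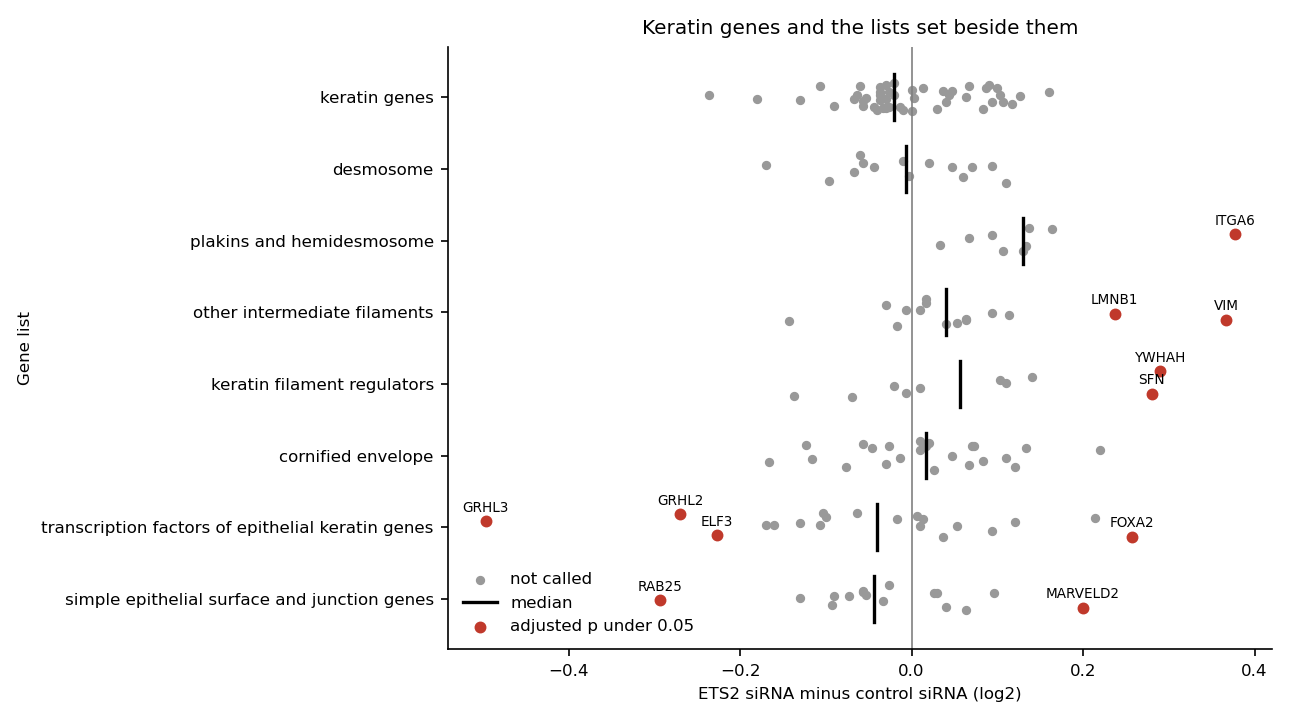
Log2 differences, ETS2 siRNA mean minus control mean (horizontal axis), of the 48 keratin genes and of 7 lists of related genes (vertical axis); each point is a gene, called genes are red and named, and black bars are medians. The keratins hold 0 called genes, and the medians run from -0.04 to 0.13.

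Of the transcription factors known to act on keratin and other epithelial genes, 4 of 20 were called (20.0%), 1 higher and 3 lower, against 4.91% of all genes, 2.28% higher and 2.63% lower. All 20 were above background, where 6.79% of genes were called. The median difference over the list was -0.04. GRHL3, a grainyhead-like factor of epidermal differentiation, read 8.43, 8.59 and 8.50 in control cells and 8.03, 8.01 and 7.99 after ETS2 siRNA. It fell to 70.9% of the control level, a difference of -0.50 (SE 0.0484, limma adjusted p = 0.00182), and its call held whichever array was left out. Its relatives GRHL2 and GRHL1 differed by -0.27 (limma adjusted p = 0.0120) and -0.16 (limma adjusted p = 0.179). The GRHL2 call was lost without ETS2 siRNA replicate 2 or 3, and that of ELF3 (-0.23) without control replicate 3 or ETS2 siRNA replicate 2 or 3.

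FOXA2, a forkhead factor of endodermal epithelium, read 7.57, 7.53 and 7.60 in control cells and 7.90, 7.70 and 7.87 after ETS2 siRNA. It rose by 0.26 (limma adjusted p = 0.0450), a call that held only without ETS2 siRNA replicate 2 among the arrays left out, and that was lost on ribosomal scaling and with array weights. KLF4, KLF5 and the lung factor NKX2-1 differed by 0.21, 0.04 and -0.11, none of them called.

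The cornified envelope genes, which accompany keratins in squamous differentiation, had 0 of 23 called by limma, against 4.91% of all genes. At an unadjusted p under 0.05 there were 2 (8.70%), against 18.5%, and 11 were above background (47.8%), against 70.8%. SPRR2D and KLK7 came closest, with differences of 0.22 and -0.17, and both were below background. The surface and junction genes of simple epithelia had 2 of 16 called (12.5%), against 4.91% of all genes, RAB25 lower and MARVELD2 higher (-0.29 and 0.20). All 16 were above background, where 6.79% of genes were called. RAB25 was lost without control replicate 1 or ETS2 siRNA replicate 1 or 3, and MARVELD2 without any single array other than control replicate 2 and with the replicate block (adjusted p = 0.0732).

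The 37 cytosolic ribosomal protein genes, used for one rescaling of the arrays, had 0 called by limma and 0 at an unadjusted p under 0.05. RPL22 and RPS7 had the smallest p-values, with differences of -0.10 and 0.11.

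Among markers of other cell types limma called 0 of 11 leukocyte and 0 of 13 fibroblast and endothelial genes, against 4.91% of all genes. At an unadjusted p under 0.05 there were 2 in each list (18.2% and 15.4%), near the 18.5% of all genes. Above background were 4 of the 11 (36.4%) and 6 of the 13 (46.2%), against 70.8% of all genes. PTPRC, CD3E, CD3D and MS4A1, which define leukocytes, and DCN, PECAM1, VWF and CDH5, which define fibroblasts and endothelium, were below background in both groups.

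So were CD4, CD8A, LYZ, PDGFRA and THY1, while some other members were above background. CD68, a lysosomal protein best known from macrophages, read 11.29, 11.35 and 11.23 in control cells and 11.47, 11.51 and 11.39 after ETS2 siRNA. All ETS2 siRNA arrays were higher, and the difference was 0.17 (limma adjusted p = 0.107). KDR, the VEGF receptor of endothelium, read 9.75, 9.88 and 9.76 in control cells and 9.62, 9.66 and 9.56 after ETS2 siRNA. All ETS2 siRNA arrays were lower, and the difference was -0.18 (limma adjusted p = 0.0850). The groups also did not overlap for the integrin gene ITGAM, which differed by -0.16 from a control level of 7.03, for COL1A1, by 0.10 from 8.95, and for FAP, which was below background, by 0.19. LUM, a proteoglycan gene, stood at 9.03 in control cells and differed by -0.05. CD14, CSF1R, COL1A2, COL3A1 and PDGFRB were above background with overlapping groups.

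The sum of log2 levels over the leukocyte list was 69.98 to 70.06 on control arrays and 69.39 to 70.17 after ETS2 siRNA. Over the fibroblast and endothelial list it was 87.05 to 88.09 and 87.27 to 88.11. Their part in the keratin values was not tested.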

How the data were processed

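The authors deposited log2 expression values, 1 column per array, made with RMA per the submitters' processing notes; RMA corrects background, normalises between arrays and summarises probes. Not given in the sources used here are its version, its settings, the genome build and the annotation. Of 33297 probes, 19460 had 1 gene symbol in the platform annotation, 1754 several and 12083 none here; 19429 of the 19460 matched a RefSeq gene record by identifier. The brightest probe over 6 arrays stood for a gene, which left 18417 genes. Array medians lay between 8.07 and 8.10, and the number of arrays limits the precision.

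Groups of 3 arrays were compared with limma 3.58.1 in R 4.3.3 (lmFit, eBayes, two-sided, Benjamini-Hochberg over all genes, no filter). An exact permutation of 3 against 3 cannot give a p under 0.1. Errors are SDs and limma's standard errors. On simulated data for this comparison, over 18417 genes, 39 of 68 genes shifted by 0.25, 66 of 66 shifted by 0.5 and 66 of 66 shifted by 1 were called, with 14 false calls among 185. The simulated noise was independent between genes and arrays, and its size came from variances that limma had drawn towards that of all genes. Fewer genes were called than in the real data. The shifted genes were drawn from all genes, whose median control SD was 0.0603, against 0.0898 for the keratins. These rates therefore need not hold for the real arrays.

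Named are ETS2, the called keratins, the keratins above background, KRT7 and KRT19, those with the highest and lowest difference, and per list up to 4 called members or the 2 with the smallest p. The other keratins below background that the text names (KRT1, KRT2, KRT9, KRT10, KRT12, KRT20, KRT23, KRT24, KRT36, KRT39, KRT40, KRT74, KRT76 and KRT222), and list members beyond the rule, were named after their values were seen. Members and lists were chosen with earlier results of these data known. The alternatives were a replicate block, 3 rescalings, 2 filters on dim genes, the mean over probes, 2 variance models, array weights and each array left out. The test of all probes on their own, and the count over keratins above background with p-values adjusted over all genes, were added after the data were seen. No set test was run.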

Additional observations from a re-analysis of the deposited data

How the results depend on the processing

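ETS2 stayed called under all 16 alternatives, with differences from -1.09 to -1.005. The number of called keratins was 0 under 8 of the 10 alternatives that keep all arrays; it was 2 with an intensity trend (KRT4 and KRT19) and 2 with array weights (KRT4 and KRT75). With 1 array left out it lay between 0 and 1. It was 0 of 48 with all probes tested on their own and 0 of 25 over the keratins above background, both added after the data were seen. The median keratin difference was -0.02, between -0.05 and 0.02 with 1 array left out, and 0.00 when only genes above the floor were tested. The count over all genes was 904, and 1397 with only genes above the floor, 1963 with an intensity trend, 1480 with array weights, 604 with the replicate block and 213 to 735 with 1 array left out; the listed partner genes had 11 called, 24 with the trend, 17 with weights and 4 to 11 with 1 array left out. The replicate block called 0 keratins and 9 partner genes. Same-numbered arrays correlated by 0.18, 0.18 and 0.04 in their deviations over genes, and differently numbered arrays by -0.20 to 0.07. The labels give numbers and no pairing, so the main test used none. Whether same-numbered arrays belong together was not tested. Signs were followed for 26 keratins only, the 25 above background and KRT75. Among these, array weights turned the sign of KRT3 (-0.0294), KRT14 (-0.0224), KRT38 (-0.0198) and KRT83 (-0.0842). With 1 array left out, 9 of these 26 keratins turned sign. KRT3 ranged from -0.0283 to 0.0317, KRT13 from -0.118 to 0.0167 and KRT14 from -0.0167 to 0.108. KRT31 ranged from -0.05 to 0.015, KRT38 from -0.13 to 0.185 and KRT77 from -0.0783 to 0.0467. KRT79 ranged from -0.0867 to 0.0433, KRT83 from -0.0867 to 0.103 and KRT85 from -0.0133 to 0.177. The signs of the other keratins were not followed. The cause was not tested. Signal near background limits what can be seen for 23 of the 48 keratins.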

Other observations

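Outside the 48 genes, 9 probes carry a keratin-derived symbol, as a pseudogene, an antisense gene or one of several symbols. With all 33297 probes tested on their own, limma called 0 of these 9 (1 at an unadjusted p under 0.05) and 0 of the 48 keratins, against 399 probes in all. A probe shared by KRT16 and its pseudogenes KRT16P1, KRT16P2 and KRT16P3 had a control level of 12.93 ± 0.06 and a level of 12.95 ± 0.07 with ETS2 siRNA (SD, n = 3), and the probe named for KRT16 alone at 8.27 and 8.22. A probe shared by KRT18 and MIR622 stood at 13.73 and 13.72, and one shared by KRT19P2 and MIR492 at 10.08 and 10.17. KRT10-AS1, the antisense gene at KRT10, had a control level of 6.62 ± 0.12 and a level of 6.90 ± 0.15 with ETS2 siRNA, a difference of 0.29 with a limma adjusted p of 0.227 over all probes, while KRT10 itself was below background. The second probes of KRT39 and KRT40 held the same values as the first on all arrays.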
